A study of Mus musculus with 4 samples.

Results

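The ELAVL and CELF genes encode RNA-binding proteins that decide how messenger RNAs are spliced, how long they last and how well they are translated. All probe sets of the platform whose single gene symbol was 1 of 10 listed genes (Elavl1 to Elavl4 and Celf1 to Celf6) were read, which gave 35 of the 45037 probe sets and 10 of the 18193 genes that a probe set names. They were measured on Affymetrix mouse arrays in cultures of cerebral cortical cells from C57BL6 mice. There were 2 arrays of neuron cultures and 2 of astrocyte cultures, titled as biological replicates. Neurons were isolated from embryonic day 16 fetuses and were cultured for 7 days by the series description, with 1% serum, 19.4 mM glucose and added progesterone, putrescine, transferrin, insulin and selenite. Astrocytes were taken from newborn mice and kept with 10% serum and 33 mM glucose for 20 days by that description, although the protocol text gives all assays a culture time close to that of the neurons. Cell type, donor age, medium and culture time thus differed together and cannot be told apart. The sources used here do not say whether a replicate was a separate litter or plate, so p-values measure the spread between these arrays.

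Both families carry RNA recognition motifs. ELAVL proteins, also called Hu proteins, bind AU-rich and U-rich stretches of messenger RNAs and mostly stabilise the RNAs they bind. Elavl1 (HuR) is made in most cell types, and Elavl2 (HuB), Elavl3 (HuC) and Elavl4 (HuD) are classical proteins of neurons. CELF proteins bind GU-rich stretches, act on alternative splicing in the nucleus and on deadenylation and translation in the cytoplasm, and oppose the muscleblind (MBNL) proteins at many exons. Celf1 and Celf2 are broadly made, and Celf3 to Celf6 are made mainly in the nervous system.

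The labelled cell types were checked against their markers. All 12 neuron markers were higher in neurons, with signals that summed to 34620 and 34249 in neurons and to 3204 and 2997 in astrocytes. Snap25, a vesicle fusion protein, was at 4360 and 3813 in neurons and at 1 and 2 in astrocytes. Of 11 tested astrocyte markers, 8 were called for astrocytes, 2 for neurons and 1 did not pass, and the list summed to 9110 and 10301 in neurons and to 20242 and 20732 in astrocytes. Gfap, the astrocytic filament protein, was at 2 and 109 in neurons and at 1744 and 2133 in astrocytes. Microglia markers summed to 143 and 219 in neurons and to 878 and 873 in astrocytes. Of 6 tested, 5 were called for astrocytes and 1 did not pass, and 4 more were too dim to be tested. Fibroblast and meningeal markers summed to 547 and 559 against 4069 and 4284. Of 8 tested, 6 were called for astrocytes, 1 (Lum) for neurons and 1 (Dcn) did not pass. Islr, named after its values were seen, made up 2465 and 2689 of the astrocyte sums of that list. Oligodendrocyte lineage markers summed to 5705 and 4933 in neurons and to 5550 and 6140 in astrocytes, and of 7 tested 4 were higher in neurons, 2 in astrocytes and 1 did not pass. Named after their values were seen, Pdgfra, a receptor of oligodendrocyte precursors, was at 1177 and 1302 in neurons and at 19 and 21 in astrocytes (38.5-fold), and the myelin gene Mbp was at 420 and 431 against 16 and 16 (15.4-fold). Sox10 and Cspg4 were also higher in neurons, and Olig1 and Cnp were higher in astrocytes. The part of these other cells in the values below was not tested. In cultures of mixed cells, fewer cells of a type and less RNA per cell cannot be told apart. Background on an array was the highest of 27 probe sets for bacterial transcripts, which came to 21 and 23 in neurons and to 17 and 15 in astrocytes.

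Of the 10 genes, 9 were higher in neurons and 1, Elavl1, was higher in astrocytes, when each was read by its brightest tested probe set. Over all 12040 genes tested, 31% were called higher in neurons and 31.1% higher in astrocytes (limma, adjusted p under 0.05). The median log2 fold change (neurons minus astrocytes) was 3.42 over the 10 genes and 0.02 over all genes. At least 8-fold higher in neurons were 6 of the 10, namely Elavl2, Elavl3, Elavl4, Celf4, Celf5 and Celf6, where 3.89% of all genes were. With an offset 4 times as large, Elavl3, Celf5 and Celf6 lay under 8-fold (log2 fold changes 2.69, 2.81 and 2.32). In 9 of the 10 both neuron arrays lay above both astrocyte arrays, against 41.4% of all genes, and in Elavl1 the order was the reverse, against 40.5%. A probe set was tested where at least 2 of 4 arrays reached the array's median, which 31 of the 35 did. The medians were 36 and 37 in neurons and 34 and 32 in astrocytes. By their brightest probe sets Elavl2, Elavl3, Elavl4, Celf3 and Celf6 passed through their neuron arrays alone. For these genes the filter fixed that the neuron arrays lay above the astrocyte arrays, so their order is no separate result. Of the 31 probe sets tested, 24 were higher in neurons, 2 were higher in astrocytes and 5 did not pass. The shares of all 25019 probe sets tested were 29.4% higher in neurons and 27.7% higher in astrocytes.

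**Figure D1:**
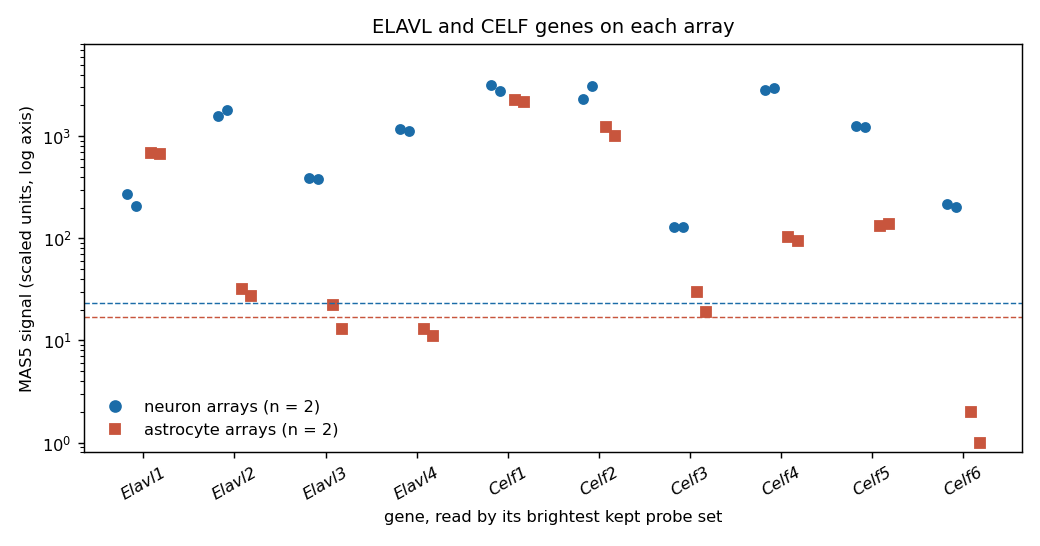
MAS5 signal (log axis, scaled units) of each ELAVL and CELF gene on the 2 neuron arrays (circles) and the 2 astrocyte arrays (squares), each gene read by its brightest tested probe set; dashed lines mark the higher background value of each culture (23 and 17). Elavl1 alone had its astrocyte arrays on top, and Elavl3, Elavl4 and Celf6 had 1 or both astrocyte arrays at or under the background line.

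The neuronal ELAVL genes were higher in neurons on all of their tested probe sets. Elavl4, which encodes HuD, an RNA stabiliser of growing neurites, had signals of 1169 and 1113 in neurons and of 13 and 11 in astrocytes. These were the values of its brightest probe set, whose astrocyte arrays were not above background. By raw signals that probe set was at least 71.3-fold higher in neurons. The fitted change was 47.1-fold (log2 fold change 5.56 ± 0.16, SE, n = 2 per group, limma adjusted p = 1.35e-07). The second Elavl4 probe set gave 724 and 827 against 2 and 9, at least 48.5-fold higher. The third Elavl4 probe set gave 469 and 443 against 23 and 16, 14.7-fold higher (log2 fold change 3.88 ± 0.19). All 3 had groups that did not overlap, which the filter fixed, since they passed it through their neuron arrays alone.

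Elavl2, which encodes HuB, had signals of 1589 and 1810 in neurons and of 32 and 27 in astrocytes. The astrocyte values lay just above background, and the gene was 40.7-fold higher in neurons (log2 fold change 5.35 ± 0.15, adjusted p = 1.35e-07). A second probe set of Elavl2 was at 999 and 1134 against 13 and 10, at least 66.7-fold higher. The third was at 484 and 712 against 28 and 15, 18-fold higher, and 1 of its astrocyte arrays was not above background. The dimmest tested probe set of Elavl2, 1454454_at, was at 45 and 77 against 24 and 3 and was called at 3.02-fold (adjusted p = 0.0103). Leaving out either neuron array ended that call (adjusted p = 0.106 without replicate 1 and 0.211 without replicate 2), as did leaving out astrocytes replicate 2 (0.128). The fifth Elavl2 probe set, 1433052_at, was too dim to be tested, at 30 and 33 in neurons and 22 and 34 in astrocytes.

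Elavl3, which encodes HuC and is widely used to mark young and mature neurons, was at 389 and 382 in neurons and at 22 and 13 in astrocytes. It was 13.4-fold higher in neurons (log2 fold change 3.75 ± 0.21, adjusted p = 1.67e-06). Its other probe sets were at 308 and 314 against 15 and 10, at least 19.4-fold, and at 177 and 180 against 10 and 2, at least 11.2-fold. The 3 estimates for Elavl3 lay between 3.40 and 3.75 on the log2 scale, and the fold changes of these probe sets did not differ by the test described with Elavl1 (adjusted p = 0.676).

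Elavl1 was the exception among the members, and its probe sets did not move one way. The brightest, 1448151_at, had signals of 269 and 207 in neurons and of 683 and 667 in astrocytes, and 1431037_a_at had 204 and 203 against 508 and 482. Both were higher in astrocytes, by 2.77-fold (log2 fold change -1.47 ± 0.16, adjusted p = 6.92e-05) and 2.35-fold (-1.23 ± 0.14, adjusted p = 8.49e-05). The probe set 1452858_at ran the other way, with 232 and 277 in neurons and 63 and 59 in astrocytes, 3.62-fold higher in neurons (log2 fold change 1.86 ± 0.18, adjusted p = 3.55e-05). So did 1428653_x_at, with 57 and 58 against 22 and 16, 2.23-fold higher in neurons (adjusted p = 0.00298). The suffix _x_at marks a probe set some of whose probes may also match other transcripts. The probe set 1440464_at was at 36 and 33 against 23 and 36 and did not pass (log2 fold change 0.18, 95% interval -0.41 to 0.77). The sixth, 1445521_at, was at 23 and 27 against 4 and 12 and was too dim to be tested. With any 1 array left out, the 4 called probe sets of Elavl1 stayed past the threshold in the same direction.

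Whether the probe sets of a gene differed in fold change was tested with limma's diffSplice, chosen after these values were seen, on all 5559 genes with more than 1 tested probe set. It called 25.2% of those genes. Of the 7 members with more than 1 tested probe set it called 5: Elavl1 (adjusted p = 3.38e-07), Elavl2 (0.000207), Elavl4 (0.00159), Celf2 (1.55e-05) and Celf4 (0.0365). For Elavl2 and Elavl4 the astrocyte signals lay near or under background, where a fold change also depends on the brightness of the probe set in neurons. The part of this in their calls was not tested. Only Elavl1 of the 7 had probe sets called in opposite directions, which 3.18% of the 5559 genes had. The log2 ratio of 1452858_at to 1448151_at was -0.20 and 0.40 in neurons and -3.20 and -3.25 in astrocytes, a difference in log2 fold change of 3.32. It lay between 3.02 and 3.63 with any 1 array left out. Averaged over its tested probe sets, Elavl1 had a log2 fold change of 0.10 (adjusted p = 0.574), so the single value of the gene rests on the probe set chosen. The sources used here do not place these probe sets on the Elavl1 transcript.

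**Figure D2:**
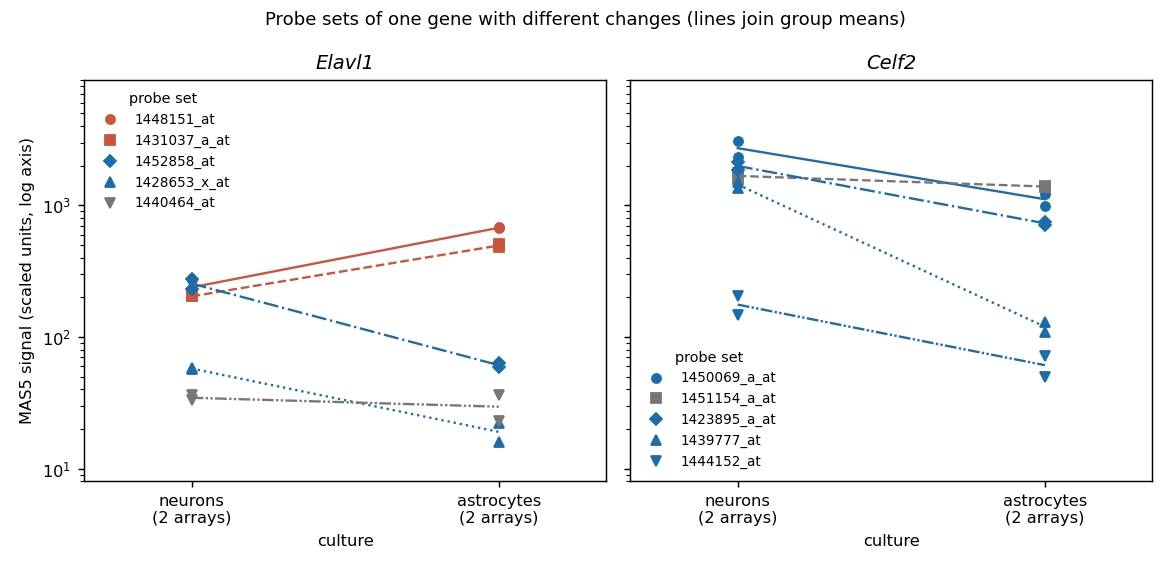
MAS5 signal (log axis, scaled units) of each tested probe set of Elavl1 and Celf2 on the 2 neuron and 2 astrocyte arrays; lines join the group means, blue marks higher in neurons, red higher in astrocytes and grey not past the threshold. In Elavl1, 1448151_at and 1431037_a_at rise towards astrocytes while 1452858_at and 1428653_x_at fall, and in Celf2 the steepest line is 1439777_at and the flattest 1451154_a_at.

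Celf4, whose loss in mice leads to seizures, had signals of 2834 and 2940 in neurons and of 103 and 95 in astrocytes. It was 26-fold higher in neurons (log2 fold change 4.70 ± 0.12, adjusted p = 1.1e-07). Its other probe sets were at 2204 and 2355 against 101 and 79 and at 1195 and 1193 against 63 and 78, which were 22.5-fold and 14.6-fold higher in neurons. The astrocyte arrays stayed above background for all 3.

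Celf6, which has been linked to behaviour in mice, was read by 1 probe set, with 215 and 201 in neurons and 2 and 1 in astrocytes. It was at least 13-fold higher in neurons (log2 fold change 3.98 ± 0.22, adjusted p = 1.58e-06). Celf5 was at 1261 and 1231 in neurons and at 132 and 137 in astrocytes, 8.56-fold higher (log2 fold change 3.10 ± 0.13, adjusted p = 4.35e-07), with astrocyte arrays well above background. Celf3, a splicing regulator of the nervous system, was dimmer, at 129 and 128 against 30 and 19, and was 3.85-fold higher in neurons (log2 fold change 1.95 ± 0.23, adjusted p = 0.000117). Each of these 3 genes had 1 tested probe set, so no second reading stands beside it. The offset moved the values of the members with dim astrocyte signals. With an offset 4 times as large the log2 fold changes were 1.26 for Celf3, 4.26 for Elavl4, 4.46 for Elavl2 and 2.69 for Elavl3. With an offset of 1 that of Celf6 was 6.41 and that of Celf4 4.85, so the order of these CELF genes depends on the offset.

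Celf2, which acts in splicing and in the stability of several transcripts, was high in both cultures and its probe sets differed in size of change. The brightest, 1450069_a_at, was at 2334 and 3103 in neurons and at 1229 and 996 in astrocytes, 2.42-fold higher in neurons (log2 fold change 1.27 ± 0.16, adjusted p = 0.000206). The probe set 1423895_a_at, at 1865 and 2116 against 706 and 753, was 2.7-fold higher. The widest difference was that of 1439777_at, with 1364 and 1510 against 109 and 130, 11-fold higher in neurons (log2 fold change 3.46 ± 0.14). At the other end 1451154_a_at was at 1594 and 1753 against 1402 and 1376 and did not pass (log2 fold change 0.27, 95% interval 0.01 to 0.52, adjusted p = 0.0706). The log2 ratio of 1439777_at to 1451154_a_at was -0.22 and -0.21 in neurons and -3.54 and -3.28 in astrocytes. Leaving out any 1 array gave differences in log2 fold change from 3.07 to 3.32 between these probe sets, against 3.19 with all 4. The dimmer 1444152_at, at 146 and 206 against 50 and 72, was 2.56-fold higher, and the adjusted p missed the threshold at 0.0553 without neurons replicate 2 and at 0.0573 without astrocytes replicate 1. The other 2 probe sets of Celf2, at 21 and 17 against 16 and 19 and at 17 and 21 against 14 and 10, were too dim to be tested.

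Celf1, which promotes the removal of poly(A) tails from GU-rich messenger RNAs, differed little. Its brightest probe set was at 3177 and 2783 in neurons and at 2279 and 2184 in astrocytes, 1.33-fold higher in neurons (log2 fold change 0.41, 95% interval 0.16 to 0.67, adjusted p = 0.0122). The next, 1427413_a_at, was at 1070 and 1051 against 858 and 841 (1.24-fold, adjusted p = 0.04). The third, 1426408_at, was at 642 and 586 against 503 and 482 and did not pass (adjusted p = 0.0654). The neuron arrays lay above the astrocyte arrays in all 3. The 2 dimmest Celf1 probe sets, at 40 and 43 against 42 and 47 and at 41 and 38 against 27 and 36, did not pass. The Celf1 call was lost without neurons replicate 1 (adjusted p = 0.107), astrocytes replicate 1 (0.0758) or astrocytes replicate 2 (0.1), without the mean-variance trend (0.0678) and with probe sets averaged (0.109).

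**Figure D3:**
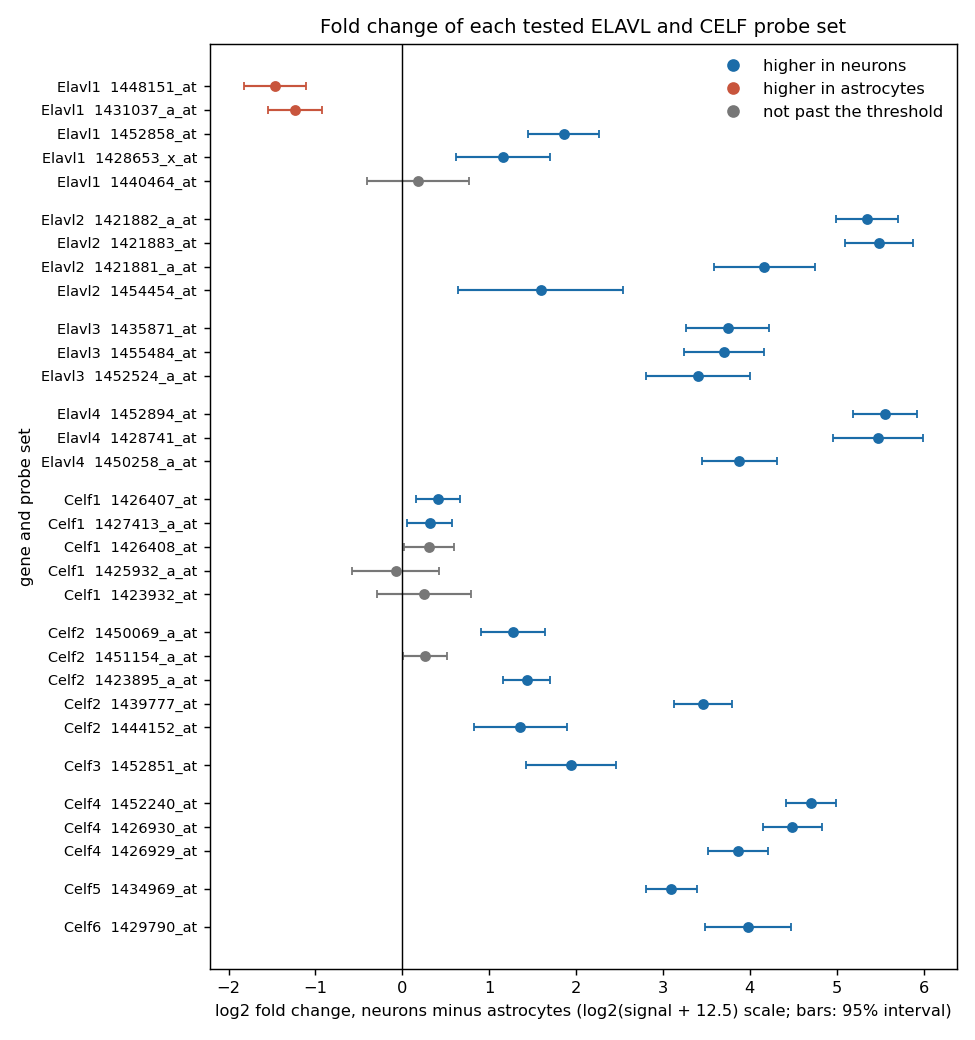
Log2 fold change (neurons minus astrocytes, on the log2(signal + 12.5) scale) of the 31 tested ELAVL and CELF probe sets, with 95% intervals from the limma fit of 2 arrays per culture; blue marks higher in neurons, red higher in astrocytes and grey not past the threshold. Elavl4 and Elavl2 reach beyond 5, Celf1 stays between -0.08 and 0.41, and Elavl1 has points on both sides of 0.

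By likeness over the 4 arrays (Euclidean distance of log2 signals), genes near to Elavl4 were Tlcd3b (0.19), Calb1 (0.20) and Rbfox1 (0.22). The distance sets signals of different probes against each other, and the astrocyte values of Elavl4 were not above background, so the order of these genes carries little. Calb1 encodes the calcium buffer calbindin and Rbfox1 a neuronal splicing regulator, and Rbfox1 was at 1134 and 1173 in neurons and at 16 and 13 in astrocytes. Near to Celf4 were Mef2c (0.09), a transcription factor gene of neurons and muscle, Mapt (0.25), which encodes tau, and Wasf1 (0.26), an actin regulator. Mef2c was at 2873 and 3102 in neurons and at 104 and 98 in astrocytes.

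For the sequence around their starts, 9 of the 10 genes were read in the RefSeq promoter table (GRCm38.p6). They had 32 windows of 300 bases, each from 250 bases before to 50 after an annotated start. Celf4 was not read, because windows on its chromosome, 18, were left out for the members. The motifs were chosen after the windows were read, and were searched on both strands. The X-box core, of which a longer form is bound by RFX factors, lay in windows of Celf3, Celf5 and Celf6. Of all 32851 windows 1.18% hold it, and of all 27025 genes with a window 1.33% do. Celf3 had 7 windows, Celf5 5 and Celf6 2. The stretches are shown because these 3 genes share it. They were higher in neurons, as were 9 of the 10 members. Each match lay before a start inside the annotated gene, not at its first start. Capitals mark the motif, and Celf5 holds it on both strands at 1 place, where the matches overlap.
Celf3, chr3:94484235-94484324, plus strand: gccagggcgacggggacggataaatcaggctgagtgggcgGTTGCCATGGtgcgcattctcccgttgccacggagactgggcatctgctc
Celf5, chr10:81473024-81473113, minus strand: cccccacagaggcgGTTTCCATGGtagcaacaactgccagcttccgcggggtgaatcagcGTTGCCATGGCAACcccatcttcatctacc
Celf6, chr9:59589137-59589226, plus strand: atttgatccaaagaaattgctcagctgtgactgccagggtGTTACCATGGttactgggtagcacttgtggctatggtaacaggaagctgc

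Celf3 and Celf6 also had the cAMP response element TGACGTCA, which is shown in capitals. Of all windows 1.79% hold it, and of all genes with a window 2.03% do.
Celf3, chr3:94484179-94484268, plus strand: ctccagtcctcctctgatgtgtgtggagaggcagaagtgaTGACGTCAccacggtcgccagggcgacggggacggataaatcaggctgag
Celf6, chr9:59578087-59578176, plus strand: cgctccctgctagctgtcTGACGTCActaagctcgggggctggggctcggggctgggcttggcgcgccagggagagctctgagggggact

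In Celf6 the motifs lay before different starts, and in Celf3 before the same ones. Of 122 tested genes with an X-box core in a window, 38.5% were higher in neurons and 23% in astrocytes. Of the 9745 tested genes with a window, 30.2% were higher in neurons. For the cAMP response element the shares were 31.7% and 24.1% of 357 genes. Over all 12040 genes tested, with or without a window, 31.1% were higher in astrocytes. Celf3, Celf5 and Celf6, whose windows were read before the motifs were chosen, are among the 122. These shares are descriptions, and a match is not a bound site.

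Elavl1 and Elavl3, which moved in opposite directions by their brightest probe sets, each had 1 annotated window, so their last 250 bases before the start are set side by side. Capitals mark CCAAT (in 37.4% of all windows), the E-box CAGCTG (16.3%) and TATAAA (13.6%).
Elavl1, chr8:4325101-4325350, minus strand: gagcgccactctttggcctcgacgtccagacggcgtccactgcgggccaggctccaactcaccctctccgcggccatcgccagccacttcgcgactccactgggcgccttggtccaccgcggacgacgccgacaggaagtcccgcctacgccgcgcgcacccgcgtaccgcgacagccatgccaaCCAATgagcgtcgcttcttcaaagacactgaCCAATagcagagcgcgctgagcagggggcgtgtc
Elavl3, chr9:22052024-22052273, minus strand: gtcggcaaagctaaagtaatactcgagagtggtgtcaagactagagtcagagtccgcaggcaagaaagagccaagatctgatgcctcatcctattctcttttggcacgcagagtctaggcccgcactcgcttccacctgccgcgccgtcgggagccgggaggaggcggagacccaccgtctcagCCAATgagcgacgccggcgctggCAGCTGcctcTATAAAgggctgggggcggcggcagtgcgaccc

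Over its whole window Elavl1 held CCAAT at 2 places and neither other motif, and 70% of its bases were G or C. Elavl3 held each of the 3 motifs at 1 place, with TATAAA starting 33 bases before the start, and 65.3% of its bases were G or C. The median over all windows was 52.7%. CAGCTG also lay in windows of Elavl2 and Elavl4 and of Celf3, Celf5 and Celf6. Of all genes with a window, 18.3% hold it. The 9 members read had 32 windows, and the 27025 genes had 32851, so members had more windows per gene in which a motif could lie.

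Other proteins that bind AU-rich and GU-rich stretches included genes called in each direction. Of 13 tested, 5 (38.5%) were higher in neurons and 5 in astrocytes, near the 31% and 31.1% of all genes, and the median log2 fold change was -0.08 beside 0.02 over all genes. Zfp36l2, of the tristetraprolin family that speeds the decay of AU-rich messenger RNAs, was at 158 and 200 in neurons and at 1487 and 1583 in astrocytes, 8.13-fold higher in astrocytes (adjusted p = 8.69e-07). Both of its relatives, named after their values were seen, were also higher in astrocytes, Zfp36l1 by 2.78-fold and Zfp36 at least 3.86-fold. The decay-promoting Hnrnpd (AUF1) went the other way, at 1044 and 1115 against 559 and 546, 1.93-fold higher in neurons, as did Ybx1, a packaging protein of messenger RNAs, at 5468 and 5474 against 1955 and 2093 (2.69-fold). Fewer of this list were called higher in neurons without neurons replicate 2 or without either astrocyte array. Fewer were called higher in astrocytes with any 1 array left out. Calls over all genes also fell in both directions with any 1 array left out.

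Factors of the general machinery that removes poly(A) tails and caps were read next. Of 23 tested deadenylation and decay factors, 15 did not pass, 5 (21.7%) were higher in neurons and 3 (13%) in astrocytes (median log2 fold change 0.11). Of all genes, 31% were higher in neurons and 31.1% in astrocytes. Parn, a deadenylase that CELF1 has been reported to recruit, was at 132 and 139 in neurons and at 168 and 211 in astrocytes and did not pass (log2 fold change -0.44, 95% interval -0.84 to -0.04, adjusted p = 0.0592). Its adjusted p was 0.0494 with a filter at the 75th percentile, 0.0427 with quantile normalization, 0.0362 with median centring and 0.0141 with probe sets averaged. The decapping enhancer gene Edc3 was 2.91-fold and the deadenylase gene Cnot7 2.36-fold higher in neurons, and Btg2, an antiproliferative protein that binds the deadenylase complex, was 3.1-fold higher in astrocytes. Without neurons replicate 2 or either astrocyte array, fewer of this list were called higher in neurons, as was so over all genes.

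Among 11 partners and modifiers of ELAVL proteins, 3 (27.3%) were higher in neurons and 5 (45.5%) in astrocytes (median log2 fold change -0.27). The shares over all genes were 31% and 31.1%. Set, a protein ligand of HuR, was at 2620 and 3108 in neurons and at 1478 and 1366 in astrocytes, 2-fold higher in neurons (adjusted p = 0.000157). The HuR ligand Anp32b was 1.46-fold higher in astrocytes (adjusted p = 0.00323), and its relative Anp32a, at 1162 and 998 against 1166 and 1327, did not pass (adjusted p = 0.208; 0.0163 with probe sets averaged). The import receptors that carry HuR split, Tnpo2 at 608 and 528 against 207 and 229 (2.52-fold higher in neurons) and Tnpo1 at 444 and 547 against 1107 and 798 (1.88-fold higher in astrocytes). With probe sets averaged the log2 fold change of Tnpo2 was 0.67, against 1.33. The Tnpo1 call was lost without neurons replicate 1 (adjusted p = 0.102), neurons replicate 2 (0.0561) or astrocytes replicate 1 (0.0711). The kinase gene Prkcd was 2.07-fold higher in astrocytes, and did not pass when probe sets matching several transcripts were left out and another was read (adjusted p = 0.554). Without neurons replicate 1, neurons replicate 2 or astrocytes replicate 1, fewer of this list were called higher in astrocytes, as was so over all genes.

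Messenger RNAs reported as ELAVL targets, from general knowledge of the field, were higher in neurons in 12 of 22 cases (54.5%) and higher in astrocytes in 6 (27.3%), where 31% and 31.1% of all genes were (median log2 fold change 0.47). Gap43, a growth cone protein whose messenger RNA HuD stabilises, was at 5545 and 5857 in neurons and at 45 and 43 in astrocytes, 101-fold higher in neurons (adjusted p = 9.81e-08). Mycn, a transcription factor gene of dividing neuroblasts, was at 582 and 833 against 11 and 2, at least 44.2-fold higher by its brightest probe set. With its probe sets averaged the log2 fold change of Mycn was 2.54, against 5.26. The largest change the other way was that of Ccnd1, a cyclin of the G1 phase, at 577 and 514 against 7228 and 8309, 13.9-fold higher in astrocytes (adjusted p = 1.56e-07). Gap43 is also in the neuron marker list.

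Antagonists and reported targets of CELF proteins split into 2 called for neurons, 4 called for astrocytes and 3 that did not pass, of 9 tested (median log2 fold change -0.20). These calls were 22.2% and 44.4%, where 31% and 31.1% of all genes were called. Mbnl1, which encodes the muscleblind protein that opposes CELF proteins in splicing, was at 667 and 595 in neurons and at 1731 and 1644 in astrocytes. Mbnl2 was at 883 and 655 against 1894 and 1706. Both were higher in astrocytes, by 2.65-fold (adjusted p = 1.79e-05) and 2.34-fold (adjusted p = 0.000195), and their groups did not overlap. Mbnl3 was too dim to be tested, at 25 and 20 in neurons and at 2 and 21 in astrocytes. The sodium channel gene Scn8a was at least 33.4-fold higher in neurons by its brightest probe set, at 578 and 490 against 4 and 15. With its probe sets averaged the log2 fold change of Scn8a was 3.24, against 4.68.

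Of 19 other RNA-binding proteins of messenger RNA ends and of splicing, 9 (47.4%) were higher in neurons and 7 (36.8%) in astrocytes (median log2 fold change 0.10). The shares over all genes were 31% and 31.1%. Khdrbs2 and Khdrbs3, splicing proteins of the STAR family, were at least 6.41-fold and 3.62-fold higher in neurons. Cpeb1, which controls poly(A) tail length and translation, was at 63 and 74 in neurons and at 449 and 411 in astrocytes, 5.47-fold higher in astrocytes (adjusted p = 4.49e-06). Without neurons replicate 2 fewer of this list were called higher in neurons, as was so over all genes.

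**Figure D4:**
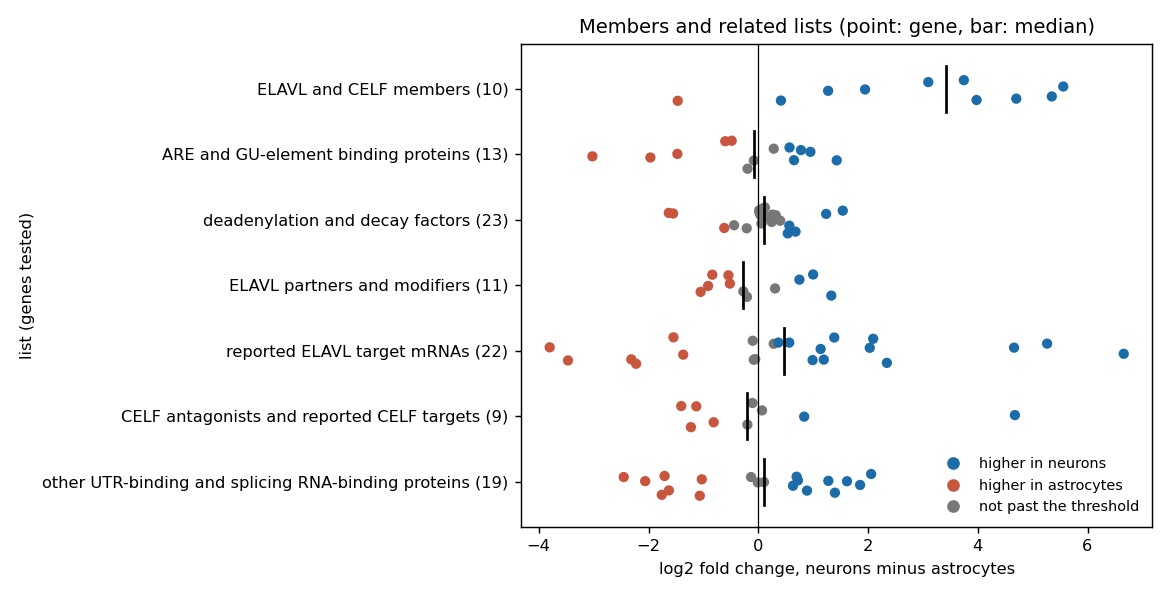
Log2 fold change (neurons minus astrocytes) of the 10 ELAVL and CELF genes and of the tested genes of 6 related lists, 1 point per gene from 2 arrays per culture, with the list median as a black bar; blue marks higher in neurons, red higher in astrocytes and grey not past the threshold. The median of the 10 genes is 3.42, and those of the 6 lists lie between -0.27 and 0.47.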

How the data were processed

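The authors deposited 1 intensity value per probe set and array, linear and in whole numbers. Per the submitters' processing notes these are MAS5 values; the sources used here do not give its version. The mean trimmed by 2% lay between 149.997 and 150.002 on each array. Per the labels' protocols, total RNA went through 2 cycles of cDNA synthesis.

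The 64 control probe sets were left out. Values were transformed to log2(value + 12.5), the offset being the median over arrays of the 25th percentile; on this scale fold changes understate the change of dim genes. Probe sets at or above the array's median on at least 2 of 4 arrays were fitted with limma 3.58.1 in R 4.3.3 (lmFit, then eBayes with trend, two-sided tests, Benjamini-Hochberg over 25019 probe sets, threshold 0.05). A gene was read by its brightest tested probe set. Of 45037 probe sets, 34945 had 1 symbol, 932 several and 9160 none; 34741 symbols were updated by Entrez identifier. Where both arrays of a culture were at or under background, the fold is "at least", from raw signals against the mean background (22 for neurons, 16 for astrocytes), a rule chosen after the control values were seen. Precision is limited by there being 2 arrays per culture (median standard error 0.18).

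On simulated data for this comparison over 25019 probe sets, 38.8% of 2-fold, 92.5% of 4-fold and 98.5% of 8-fold changes were recovered. In the simulated test of probe sets within 5559 genes, 94% of 4-fold changes of 1 probe set were recovered, and 6.93% of its calls were false.

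The members, lists and tests were chosen with earlier results of these data known. From each list the 2 largest called changes in its majority direction (neurons where tied) and the largest in the other were named, with Mbnl1 to Mbnl3, Parn, Set, Anp32a, Anp32b, 8 markers, and the 3 genes nearest to the member of each family with the largest fitted log2 fold change (Elavl4 and Celf4; with the larger offset Elavl2 passes Elavl4, and with an offset of 1 Celf6 passes Celf4). Endothelial markers had 1 tested gene, which did not pass, and of 6 tested progenitor and dividing cell markers 3 were higher in each culture. Among named markers Mki67 was at 468 and 298 in neurons and at 13 and 16 in astrocytes, Aif1 was too dim to be tested, Olig2, the 1 of 7 tested oligodendrocyte lineage markers that was not called, had an adjusted p of 0.214, Tubb3 was 38-fold higher in neurons, and Aqp4 (6.71-fold) and Col1a1 (2.07-fold) were higher in astrocytes. Log2 signals correlated across probe sets at 0.977 between the neuron arrays, at 0.978 between the astrocyte arrays and at 0.827 to 0.834 between cultures.

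Alternatives covered the filter, offset, normalization, trend, probe set choice, each array left out and the replicate number as a block. Same-numbered arrays did not deviate together (correlation of deviations -0.09).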

Additional observations from a re-analysis of the deposited data

How the results depend on the processing

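Under 14 alternatives, member genes gave 139 values, of which 133 kept direction and side of the threshold, 5 (all Celf1) missed it and 1 reversed. The reversed value was Elavl1 with probe sets averaged, at 0.10, and under that setting 0 member genes were called higher in astrocytes by limma. Without probe sets matching several transcripts, 1 member probe set was higher in astrocytes. With 1 array left out, 8 to 9 member genes and 21 probe sets were higher in neurons, and 1 gene and 2 probe sets in astrocytes. The diffSplice test over all tested probe sets of a gene stayed past the threshold under the alternatives that could be fitted, 13 for Elavl1 and 12 for Celf2. Between the 2 probe sets with the highest and lowest fold change, the difference ranged from 2.79 to 3.63 for Elavl1 and from 2.88 to 3.32 for Celf2. That difference between 2 picked probe sets was not itself tested. Averaging leaves no probe sets to compare, and 1451154_a_at is among those left out with the suffixes. A filter at the 75th percentile dropped Celf3 and left 3 ELAVL partners and modifiers higher in astrocytes, with Prkcd no longer tested. With probe sets averaged, 7 AU-rich and GU-rich binding proteins were higher in neurons and 3 in astrocytes. The cause of these changes in count was not tested. Leaving out an array leaves 1 array in a culture, and calls over all genes then fell in both directions. With 1 array left out the list counts (neurons, then astrocytes) were 2 to 5 and 2 to 4 for binding proteins, 2 to 5 and 2 to 2 for decay factors, 2 to 3 and 3 to 4 for partners, 9 to 10 and 6 to 6 for ELAVL targets, 2 to 2 and 3 to 4 for the CELF list, and 5 to 9 and 7 to 7 for the others. Of 302 values for genes named from the lists, 293 kept their side and 0 reversed. The numbers 1 and 2 are shared by both cultures but nothing ties the samples: with the replicate block 9 and 1 member genes and 23 and 2 probe sets were called, and no gene call changed. With probe sets averaged the log2 fold changes of Elavl2 and Elavl4 were 4.15 and 4.97, and without probe sets matching several transcripts that of Celf2 was 3.46. Signals near background limit the fold of Elavl2, Elavl3, Elavl4, Celf3 and Celf6.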
